A study of Mus musculus with 6 samples.

Results

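Wnt11 and 9 genes of the Wnt pathway were followed in cultures labelled as mouse lung endothelial cells, out of 18956 genes in the deposited table. The 10 were Wnt11, the frizzled receptor genes Fzd4 and Fzd6, the co-receptors Lrp5 and Lrp6, β-catenin (Ctnnb1), and Axin2, Lef1, Tcf7 and Apcdd1, which serve as readouts of β-catenin activity. They were matched by gene symbol, and all 10 were in the table. They had been selected on their values in the contrast described here, so those values are a description and carry no test. Expression was measured by RNA sequencing in 6 libraries, of which 3 are labelled WT, Cre-negative, and the other 3 CSE-KO, Cre-positive, each numbered 1 to 3. CSE is cystathionine gamma-lyase, the product of Cth. Cells of both groups came from mice, and the Cre driver, the deleted exons, the strain and age of the animals, the passage of the cells, and whether each library came from its own animal or culture are not stated in the labels. P-values therefore reflect only the spread among these libraries, and that spread may be technical.

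Wnt proteins are secreted, lipid-modified ligands that bind frizzled receptors. With LRP5 or LRP6 as co-receptor, the canonical branch stabilises β-catenin, which enters the nucleus and activates genes together with the TCF/LEF transcription factors. Other branches act through the small GTPases, JNK and planar cell polarity proteins or through calcium, without β-catenin, and WNT11 is best known as a ligand of these branches in heart and kidney development. In endothelium, FZD4 is the receptor of the ligand norrin and of several Wnts, and canonical signalling is needed for vessels of the retina and brain.

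TCF/LEF factors bind the core CTTTGA, so the stretch just before the transcription start of 4 genes is shown with each match to this core, on either strand (CTTTGA or TCAAAG), in capitals. Wnt11 and Axin2 are shown as the ligand that appeared in the CSE-KO libraries and the readout that stayed near 0. Sp5 and an internal start of Lef1 are shown because each of these windows held 2 matches. Each window is the 250 bases before a RefSeq start (GRCm38.p6, the build called mm10), on the plus strand, at chr7:98834862-98835111 for Wnt11, chr11:108920099-108920348 for Axin2, chr3:131156044-131156293 for Lef1 and chr2:70474673-70474922 for Sp5. The Lef1 window precedes an internal start and lies within the gene, and none of the 4 windows overlaps a GENCODE exon.
Wnt11: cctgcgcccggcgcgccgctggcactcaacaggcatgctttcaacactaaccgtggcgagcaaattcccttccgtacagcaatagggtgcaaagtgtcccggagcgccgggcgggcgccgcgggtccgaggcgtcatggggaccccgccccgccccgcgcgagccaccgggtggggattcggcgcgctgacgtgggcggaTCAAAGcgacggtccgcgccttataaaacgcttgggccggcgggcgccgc
Axin2: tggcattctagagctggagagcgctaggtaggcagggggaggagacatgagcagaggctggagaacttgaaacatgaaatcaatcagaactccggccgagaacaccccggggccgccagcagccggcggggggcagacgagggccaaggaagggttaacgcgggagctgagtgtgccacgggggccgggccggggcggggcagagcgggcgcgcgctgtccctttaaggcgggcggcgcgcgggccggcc
Lef1: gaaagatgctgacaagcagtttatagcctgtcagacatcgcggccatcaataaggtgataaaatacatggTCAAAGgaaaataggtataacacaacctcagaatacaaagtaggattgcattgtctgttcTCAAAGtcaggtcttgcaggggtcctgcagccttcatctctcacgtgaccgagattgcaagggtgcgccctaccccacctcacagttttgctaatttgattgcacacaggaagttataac
Sp5: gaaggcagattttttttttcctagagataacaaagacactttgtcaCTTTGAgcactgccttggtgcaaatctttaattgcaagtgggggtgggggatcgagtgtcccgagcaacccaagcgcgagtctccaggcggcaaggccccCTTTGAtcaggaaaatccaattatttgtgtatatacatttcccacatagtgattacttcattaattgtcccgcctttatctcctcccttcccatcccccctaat

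The Wnt11 window held 1 match, which began 50 bases before the start, and the window of its second, internal start held none. In Lef1 the matches began 180 and 120 bases before the internal start, and the 3 windows of its other starts held none. Sp5, a transcription factor gene that β-catenin activates directly, had its matches at 204 and 104 bases. Windows were used for 6 of the 10 genes, of which Wnt11 and Lef1 held a match and Fzd4, Axin2, Tcf7 and Ctnnb1 did not. The core is common: 4544 of 32851 windows of this length held it (13.8%), as did 16 of 152 windows of Wnt pathway genes, the 6 included (10.5%). The longer motif ATCAAAG, which contains the core on one strand, was in 3.21% of windows. Of the windows shown, those of Wnt11 and Sp5 held it on either strand, and no window of Lef1 did. Windows of Wnt5b, Tnfrsf19 and Prickle2 held it as well. A match is a description of letters and no evidence of binding.

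Wnt11 was close to absent in WT and was the most abundant Wnt ligand transcript in CSE-KO. It was measured at 0, 2 and 3 normalized counts in WT 1 to 3, against 320, 341 and 335 in CSE-KO 1 to 3, with means of 1.67 ± 1.53 against 332 ± 10.8 (SD, n = 3 per group, as for every mean below). A normalized count is a read count divided by a factor for its library, here rounded to a whole number. The groups did not overlap, the 3 CSE-KO libraries lay close together, and CSE-KO 1 was the lowest of them. The difference of mean log2(value + 0.5) was 7.67, and its size depends on the few WT reads, from 8.58 with 0.1 added to each value to 5.69 with 5 added. No fold is given, since the WT mean was under 3. The gene (ENSMUSG00000015957) lies on chromosome 7 from 98835112 to 98855195 on mm10, plus strand, with 4137 bases of exon.

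**Figure D1:**
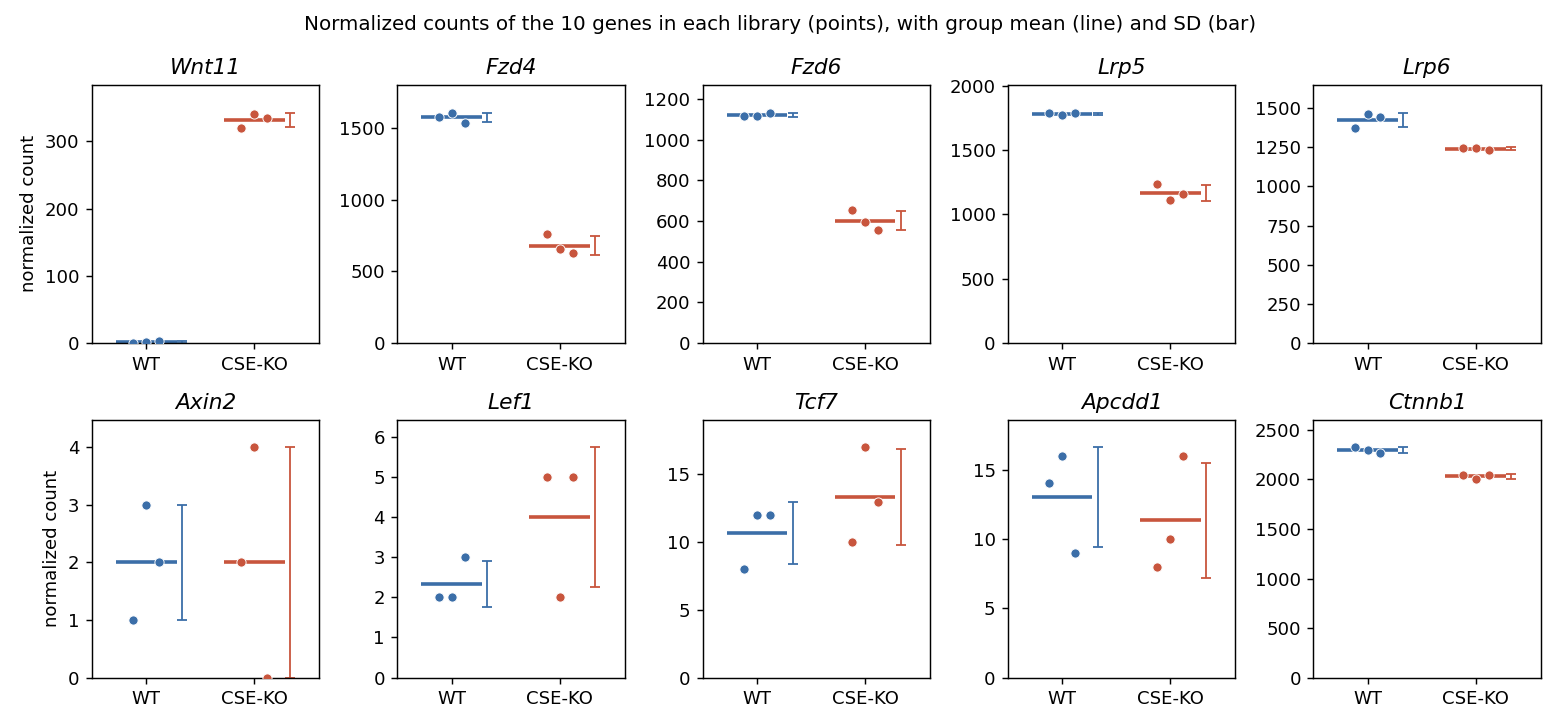
Normalized counts (vertical axes, starting at 0 and scaled for each gene) of the 10 genes in WT and CSE-KO libraries. Points are libraries, lines are group means and bars are SDs. Wnt11 goes from at most 3 in WT to at least 320 in CSE-KO, while Axin2 and Lef1 stay at 5 or less in every library.

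Cth was 27.3 ± 1.53 in WT and 51.7 ± 10.3 in CSE-KO, which goes against the label. Its log2 fold change was 0.89 (SE 0.18, adjusted p = 0.00079), and since 1 value per gene cannot show whether some exons are missing, groups are named by their labels. Totals of normalized counts were 6028772 to 6052275 in WT and 5698922 to 5765008 in CSE-KO. Differences among the WT libraries were smaller than counting noise (squared difference over sum, mean per gene 0.690 to 0.737, where counting alone gives 1), as did CSE-KO 2 and 3 (0.848), whereas CSE-KO 1 differed from those by more (1.70 and 1.995). With WT counted as 1 sample, 86 of the 138 other Wnt genes tested were called rather than 104. In the fit over all genes, 10639 of 13750 tested genes changed (77.4%), of which 5270 rose (38.3% of those tested) and 5369 fell (39.0%). Of the 10 Wnt genes, 8 had enough signal to be tested and 6 were called, Wnt11 upward and Fzd4, Fzd6, Lrp5, Lrp6 and Ctnnb1 downward. The same 6 had groups that did not overlap, as did 80.4% of all tested genes. Because these 10 were chosen on this contrast, nothing is read from those counts or calls. Wnt11 reached 10, the level needed for the test, in CSE-KO alone, so it could be called only upward.

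Most markers of macrophages and mesothelium stood higher in the same libraries as Wnt11, while other lists were mixed. Over all tested genes, 38.3% rose and 39.0% fell. Of 10 macrophage markers 8 rose and 1 fell, with a summed level of 1020 to 1063 in WT and 1338 to 1507 in CSE-KO. The 1 that fell was Cd14, from 779 ± 7.51 to 239 ± 67.1. A test needed a value of 10 in 3 or more libraries. Ptprc, Adgre1, Csf1r, Mpeg1, C1qa and Marco reached 10 in CSE-KO alone, so they could be called only upward and their rise is a description. The macrophage genes Ptprc, Adgre1 and Marco were at 0 in every WT library and at 18 to 25, 36 to 62 and 40 to 62 in CSE-KO. Of 7 tested mesothelial markers 5 rose and none fell (summed 460 to 504 against 1049 to 1208), with mesothelin, Msln, at 1, 4 and 3 in WT against 52, 51 and 60 in CSE-KO. The mesothelial transcription factor gene Wt1 was at 2, 1 and 1 against 18, 16 and 40. Msln, Upk3b and Wt1 also reached 10 in CSE-KO alone, so the same holds for them. Mural markers rose in 4 and fell in 3 of 7 (1097 to 1153 against 1632 to 1757). Of these, Des rose from 14.0 ± 1.00 to 179 ± 32.7, and Kcnj8, Cspg4 and Pdgfrb fell, the first from 182 ± 6.08 to 13.3 ± 5.86. Cspg4 reached 10 in WT alone. Fibroblast markers rose in 1 of 5, Dcn, from 74.7 ± 1.53 to 319 ± 33.6 (1042 to 1110 against 1068 to 1367 for the list). Epithelial markers summed to 25 to 28 in WT and 19 to 25 in CSE-KO.

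Endothelial markers were abundant in both groups, and 9 of 10 fell, beside 39.0% of all tested genes (summed 15538 to 15849 against 10509 to 11161). The endothelial cadherin gene Cdh5, at 2829 ± 17.8 and 2673 ± 6.43, changed least of the 9 that fell. Tek fell from 862 ± 23.0 to 292 ± 29.0, Kdr from 2143 ± 26.2 to 980 ± 76.6 and Cldn5 from 808 ± 13.3 to 284 ± 73.1. Emcn, at 1386 ± 26.5 and 1404 ± 8.72, was not called. Of 6 lymphatic endothelial markers, 5 fell and 1, Pdpn, rose (14886 to 15172 against 5513 to 7510). In bulk RNA, a change in the number of cells of a type and a change in RNA per cell cannot be told apart. The part of these other cells in the level of Wnt11, of the receptors and of the lists described here was not tested.

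**Figure D2:**
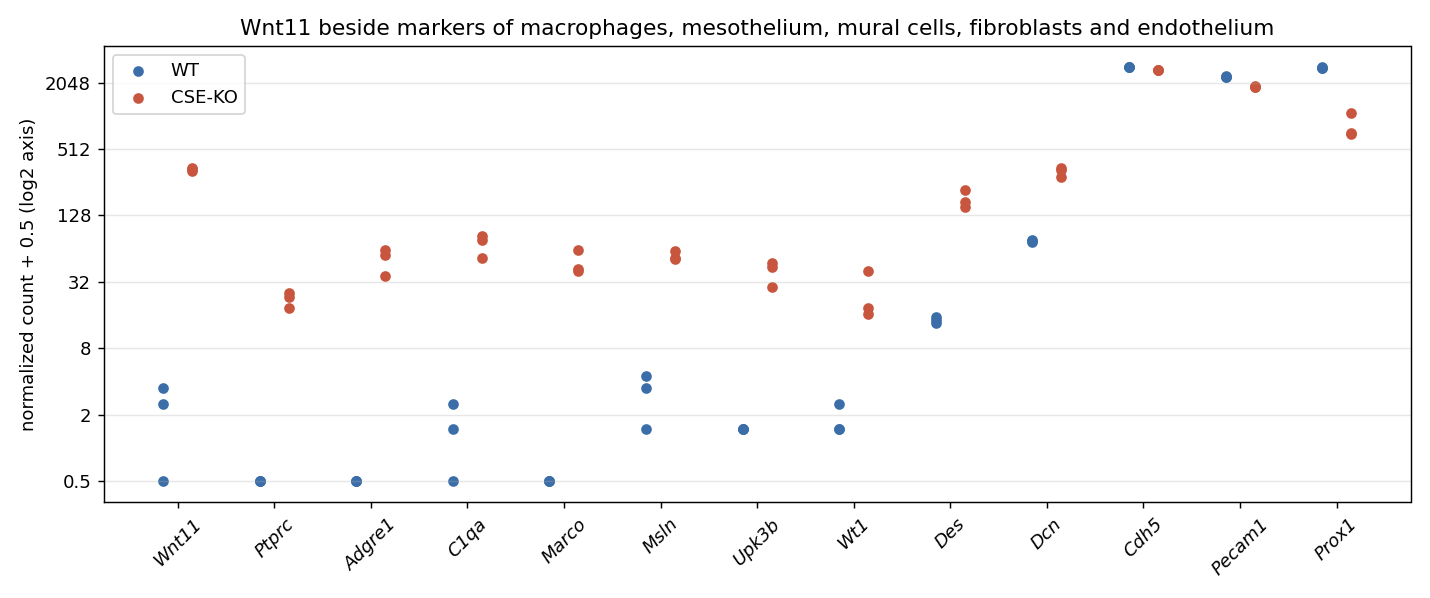
Normalized count + 0.5 (vertical log2 axis) of Wnt11 and 12 markers in each library, with WT in blue and CSE-KO in red. Wnt11, the macrophage genes Ptprc, Adgre1, C1qa and Marco and the mesothelial genes Msln, Upk3b and Wt1 are near 0 in WT and higher in CSE-KO, whereas Cdh5 is abundant in all 6 libraries. The markers shown were picked after their values were seen. Those that fell (Cd14, Kcnj8, Cspg4 and Pdgfrb) or were not called (Mrc1, Krt8 and Krt18) in the macrophage, mural and mesothelial lists are left out. Also left out are the fibroblast genes Pdgfra, Col1a1, Col1a2 and Postn, none of them called. The same holds for the endothelial genes Kdr, Tek, Tie1, Erg, Egfl7, Cldn5 and Esam, which fell by more than Cdh5. Emcn, which was not called, and the lymphatic gene Pdpn, which rose, are not shown either.

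The 5 genes with the profile most like that of Wnt11 over the 6 libraries were Xirp2, Lce1g, C1qc, Lilr4b and Insrr. Likeness was the Euclidean distance between log2(value + 0.5) profiles centred on each gene, which ran from 1.75 for Xirp2 to 2.42 for Insrr. Xirp2, an actin-binding gene of striated muscle, was at 0, 0 and 1 in WT against 93, 114 and 106 in CSE-KO. C1qc, a complement subunit made by macrophages, was at 0, 0 and 1 against 63, 83 and 81, and Insrr, a receptor tyrosine kinase of the insulin receptor family, was at 0 in WT against 53, 52 and 51 in CSE-KO. All 5 were near 0 in WT, which is what the measure selects.

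Of the 4 neighbours of Wnt11 that could be tested, 2 rose and 2 fell, where 77.4% of all tested genes were called. Uvrag, an autophagy gene on the opposite strand whose near end lies 29.8 kb away, fell from 1073 ± 41.9 to 679 ± 24.5 (log2 fold change -0.66, SE 0.04, adjusted p = 3.7e-08). Thap12, 117.0 kb away on the other side, fell from 791 ± 8.39 to 660 ± 24.1 (log2 fold change -0.26, adjusted p = 2.6e-05). Dgat2, which makes triglycerides and lies 298.5 kb away, rose from 45.3 ± 4.73 to 141 ± 6.66. Emsy, 178.3 kb away, was at 741 ± 15.01 and 792 ± 12.8 and lost its call without WT 3 (adjusted p = 0.055, against 0.012 with all libraries). The 2 remaining neighbours, a pseudogene and a long noncoding RNA, had values of 7 or less in every library.

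Of 19 Wnt ligand genes 12 were in the table, whose rows all reach at least 3 in some library. Beside Wnt11, 5 could be tested, of which Wnt9a and Wnt2 rose, Wnt2b and Wnt9b fell and Wnt5a was not called. The share called was 80.0%, against 77.4% of all tested genes. Wnt5a, the best known non-canonical ligand, was at 147, 175 and 145 in WT against 155, 153 and 206 in CSE-KO, and these groups overlap (log2 fold change 0.13, SE 0.12, adjusted p = 0.36). Wnt9a rose from 44.7 ± 2.52 to 79.0 ± 8.54 (log2 fold change 0.81, SE 0.13, adjusted p = 0.00017). Wnt2, a ligand of lung development, rose from 14.0 ± 2.00 to 23.3 ± 4.62 (adjusted p = 0.021), a call that was lost without WT 1, CSE-KO 2 or CSE-KO 3 (adjusted p = 0.065, 0.076 and 0.071).

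Wnt2b, which is made by lung mesenchyme, fell from 19.3 ± 2.89 to 3.00 ± 1.73 (log2 fold change -2.60, SE 0.40). Wnt9b was at 24, 17 and 15 in WT and is listed at 0 in all 3 CSE-KO libraries. Wnt2b and Wnt9b reached 10, the level needed for the test, in WT alone, so their fall is a description. The remaining 6, Wnt1, Wnt4, Wnt5b, Wnt6, Wnt7a and Wnt7b, were at 10 or less in every library.

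Per kb of exon, the summed ligand level was 50.1 to 56.8 in WT and 135.9 to 151.7 in CSE-KO. Wnt11 made up 0.748% ± 0.702 of that sum in WT and 56.4% ± 2.73 in CSE-KO. The order in WT was Wnt5a (19.9 ± 2.14 per kb), Wnt9a (13.4 ± 0.756) and Wnt2 (6.21 ± 0.887), each clear of the next by more than the SDs. In CSE-KO it was Wnt11 (80.3 ± 2.61 per kb), then Wnt9a (23.7 ± 2.57) and Wnt5a (21.9 ± 3.84), which did not differ beyond their spread. Without Wnt11, no ligand exceeded 26.3 per kb in any library.

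**Figure D3:**
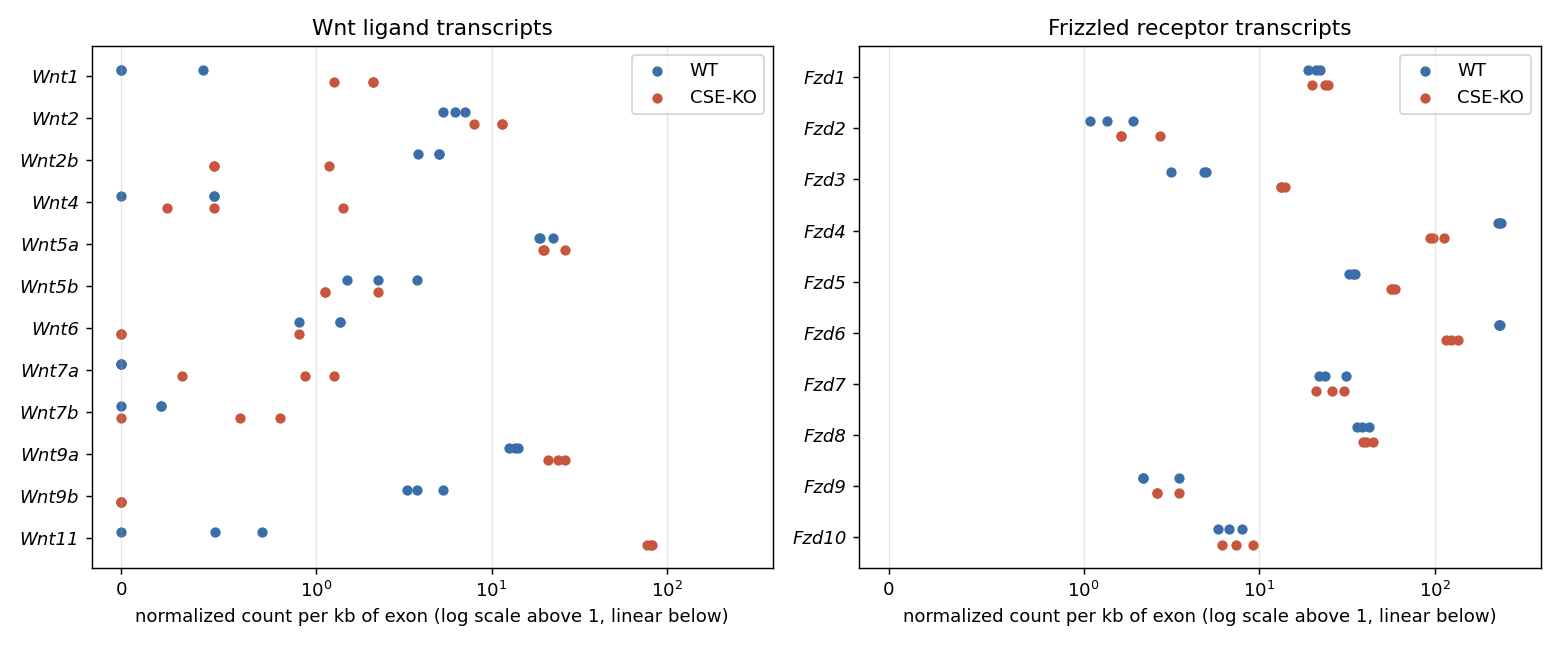
Normalized count per kb of exon (horizontal axes, logarithmic above 1 and linear below) of 12 Wnt ligand genes (left) and 10 frizzled genes (right), 1 point per library. Wnt11 moves from the lowest end to the highest among the ligands, and Fzd4 and Fzd6 are the highest frizzleds in both groups, with lower levels in CSE-KO.

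Genes for lipid attachment to Wnts and for their release were measured in both groups. Of 8 tested, 4 rose and 2 fell (75.0% called, against 77.4% of all genes). Their median log2 difference was 0.07, beside 0.001 over all tested genes. Wls, the carrier that takes Wnts to the cell surface, rose from 741 ± 18.3 to 891 ± 27.6 (log2 fold change 0.27, SE 0.03, adjusted p = 2.0e-05). Vps26a, a subunit of the retromer that recycles this carrier, rose from 625 ± 13.0 to 929 ± 9.00, and the cargo receptor Tmed10 fell from 870 ± 3.06 to 655 ± 28.3. Porcn, the acyltransferase that attaches the lipid, was at 41, 47 and 43 in WT against 40, 38 and 40 in CSE-KO.

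Fzd4 was lower in CSE-KO. It was at 1582, 1607 and 1539 in WT 1 to 3, against 758, 654 and 628 in CSE-KO 1 to 3, a 2.32-fold lower mean (log2 difference -1.22). The groups did not overlap, and CSE-KO 1 was the nearest to WT. Fzd6, which is linked to planar polarity and restrains canonical signalling in some settings, was at 1116, 1118 and 1133 in WT against 652, 595 and 557 in CSE-KO, 1.87-fold lower (log2 difference -0.90). Its CSE-KO libraries kept the same order as for Fzd4, with CSE-KO 1 highest. Fzd4 (ENSMUSG00000049791) shares chromosome 7 with Wnt11, at 89404355 to 89413134, and Fzd6 (ENSMUSG00000022297) lies on chromosome 15 from 39006034 to 39038188. Part of the Fzd4 promoter window overlaps an exon of Tmem135 on the opposite strand.

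The co-receptors were lower by unequal amounts. Lrp5 was at 1793, 1778 and 1786 in WT against 1236, 1110 and 1160 in CSE-KO, 1.53-fold lower (log2 difference -0.61). Lrp6 was at 1376, 1460 and 1445 against 1247, 1248 and 1230, 1.15-fold lower (log2 difference -0.20, and -0.13 with library totals set equal). The groups were apart for each of them. For Lrp6 the gap between the nearest libraries, 1376 and 1248, was small beside the level but wider than the range within either group. Lrp5 (ENSMUSG00000024913) lies on chromosome 19 from 3584828 to 3686564 and Lrp6 (ENSMUSG00000030201) on chromosome 6 from 134446476 to 134566965, both on the minus strand.

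The other frizzleds did not follow Fzd4 and Fzd6. Fzd5 rose from 234 ± 10.02 to 397 ± 10.5 (log2 fold change 0.76, SE 0.05, adjusted p = 1.3e-07), and Fzd3, a polarity receptor of the nervous system, from 55.3 ± 13.3 to 174 ± 4.62 (log2 fold change 1.67, SE 0.16, adjusted p = 6.5e-06). Fzd8 was at 216, 229 and 252 against 232, 241 and 267, and Fzd7 at 142, 99 and 108 against 96, 137 and 118. Neither Fzd7 nor Fzd8 was called, nor were Fzd1 (87.0 ± 6.56 and 95.7 ± 10.4) and Fzd10 (22.3 ± 3.51 and 24.7 ± 5.03). Lrp4, a co-receptor that can bind Wnt inhibitors, fell from 96.3 ± 6.66 to 28.3 ± 8.62 (log2 fold change -1.79, SE 0.21, adjusted p = 1.7e-05). In all, 2 of 7 tested receptors outside the 10 rose and 1 fell (42.9% called, against 77.4% of all genes).

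Per kb of exon, the summed frizzled level was 597.5 to 607.2 in WT and 391.1 to 414.9 in CSE-KO. Fzd4 and Fzd6 were level in WT, at 235 ± 5.12 and 233 ± 1.93 per kb. In CSE-KO Fzd6 stood at 125 ± 9.92 and Fzd4 at 101 ± 10.2, and the lowest Fzd6 library (115.6) was above the highest Fzd4 library (112.8). Fzd4 made up 39.0% ± 0.558 of the frizzled sum in WT and 25.3% ± 1.72 in CSE-KO, and the share of Fzd5 was 5.63% ± 0.196 in WT and 14.4% ± 0.625 in CSE-KO.

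Among other receptors for Wnts and norrin, 6 of 10 tested fell and 1 rose (70.0% called, against 77.4% of all genes). Their median log2 difference was -0.29. Ptk7, a polarity co-receptor, fell from 1019 ± 21.0 to 530 ± 33.2 (log2 fold change -0.94, SE 0.04, adjusted p = 8.3e-09), and the glypican Gpc4 from 859 ± 14.2 to 533 ± 18.6. Adgra2, which with Reck presents WNT7 ligands to FZD4 in brain endothelium, fell from 1803 ± 34.6 to 1389 ± 18.0 (adjusted p = 7.6e-08). Reck was at 274 ± 5.20 and 284 ± 18.6 and was not called. Tspan12, the partner of FZD4 in norrin signalling, fell from 364 ± 24.1 to 274 ± 23.4 (adjusted p = 0.00022). The receptor kinase Ror1 rose from 58.3 ± 8.96 to 136 ± 10.6 (log2 fold change 1.22, SE 0.13, adjusted p = 5.5e-06). Its relative Ror2 was at 12, 22 and 23 in WT and at 10 in each CSE-KO library, with a call that was lost without WT 2, WT 3 or CSE-KO 2 (adjusted p = 0.092, 0.10 and 0.050).

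Inhibitors of Wnt signalling fell in 5 and rose in 1 of 8 tested (75.0% called, against 77.4% of all genes, median log2 difference -0.95). Sfrp1, a secreted decoy that binds Wnts, fell from 247 ± 13.4 to 75.7 ± 13.6 (log2 fold change -1.71, SE 0.12, adjusted p = 2.3e-07). Kremen1, which with DKK proteins removes LRP6 from the surface, fell from 932 ± 29.1 to 423 ± 40.2 (log2 fold change -1.14, SE 0.06, adjusted p = 3.3e-07). Draxin fell from 39.7 ± 5.51 to 16.7 ± 3.06. Igfbp4 was at 1272, 1212 and 1259 in WT against 528, 229 and 168 in CSE-KO, with CSE-KO 1 well above the others (log2 fold change -2.19, adjusted p = 0.013, and 0.14 with WT counted as 1 sample). Of the R-spondin axis, which amplifies Wnt signals, 3 genes were tested, and Rspo3 was at the threshold (50.3 ± 4.73 and 39.0 ± 4.58, adjusted p = 0.050). That call was lost with recomputed size factors (adjusted p = 0.052) and without WT 1, WT 2, CSE-KO 2 or CSE-KO 3 (adjusted p = 0.070 to 0.16).

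Ctnnb1 itself was abundant in every library. It was at 2324, 2293 and 2266 in WT against 2046, 2001 and 2044 in CSE-KO, 1.13-fold lower (log2 difference -0.18). The groups did not overlap, and the gap between the nearest libraries, 2266 and 2046, was wider than the range within either. A difference this small depends on the scaling, with -0.10 when library totals were set equal and -0.23 when values were corrected for reads that may have been lost at shared start positions. The gene (ENSMUSG00000006932) lies on chromosome 9 from 120929216 to 120960507 and has 5192 bases of exon, so that WT libraries held 0.442 normalized counts per exonic base, the densest of the 10. β-catenin is regulated mainly as a protein, which RNA does not show.

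Other cytoplasmic transducers rose in 11 and fell in 8 of 28 tested (67.9% called, against 77.4% of all genes). Their median log2 difference was 0.05. Csnk1e, a kinase that acts on dishevelled, rose from 1018 ± 19.3 to 1623 ± 37.6 (log2 fold change 0.67, SE 0.03, adjusted p = 3.1e-09), and Dvl2, a dishevelled gene, from 162 ± 11.2 to 314 ± 13.3 (log2 fold change 0.95, SE 0.07, adjusted p = 1.9e-07). Csnk1g2, a kinase that acts on LRP6, fell from 984 ± 20.9 to 565 ± 47.1. Genes of the complex that destroys β-catenin did not move in 1 direction. Axin1, its scaffold, rose from 543 ± 2.65 to 630 ± 13.7, the kinase gene Gsk3b from 1212 ± 18.2 to 1317 ± 19.3, and Apc fell from 2050 ± 27.7 to 1785 ± 17.9. None of these 3 passed a test against a fold of 1.2. Amer1, which recruits APC to the membrane, fell from 209 ± 21.1 to 105 ± 14.8 (log2 fold change -0.997, SE 0.11, adjusted p = 8.6e-06). The APC relative Apc2, which reached 10 in WT alone, fell from 17.3 ± 1.53 to 4.00 ± 2.00. The kinase genes Gsk3a (666 ± 8.39 and 687 ± 13.0) and Csnk1a1 (1826 ± 27.8 and 1805 ± 8.62) were not called.

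The 4 genes that report β-catenin activity were near the limit of measurement in both groups, and their groups overlapped. Axin2, the feedback scaffold that canonical signalling induces in most tissues, was at 1, 3 and 2 in WT against 2, 4 and 0 in CSE-KO. Lef1, a TCF/LEF factor and target, was at 2, 2 and 3 against 5, 2 and 5. Both were too low to be tested, so a fall or a small rise in them was not detectable at this depth. A rise to 10 or more in all CSE-KO libraries would have been tested, and neither gene exceeded 5 in any library.

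Tcf7, another factor of that family, was at 8, 12 and 12 in WT against 10, 17 and 13 in CSE-KO (log2 difference 0.30). Apcdd1, a membrane inhibitor that canonical signalling induces, was at 14, 16 and 9 against 8, 10 and 16 (log2 difference -0.21). These 2 entered the fit and were not called. Per kb of exon they reached 5.08 ± 1.34 (Tcf7, CSE-KO) and 1.01 ± 0.280 (Apcdd1, WT), against 442 ± 5.59 for Ctnnb1 in WT.

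Among 13 other tested genes that β-catenin can activate, 5 rose and 3 fell (61.5% called, against 77.4% of all genes). Their median log2 difference was 0.27. Tnfrsf19, a receptor also called Troy, was at 1, 0 and 0 in WT against 83, 62 and 69 in CSE-KO. Sp5, whose promoter is shown above, rose from 91.0 ± 11.4 to 214 ± 9.54 (log2 fold change 1.24, SE 0.10, adjusted p = 5.8e-07). Ccn4, a secreted matrix protein gene first found as a Wnt-induced gene, rose from 109 ± 12.9 to 288 ± 14.7 (log2 fold change 1.40, SE 0.09, adjusted p = 1.0e-07). Fgfbp1, a carrier of fibroblast growth factors, rose from 5.00 ± 1.00 to 23.0 ± 2.65, and the growth regulator Myc, the fifth, from 682 ± 17.7 to 824 ± 26.2. Tnfrsf19 and Fgfbp1 reached 10, the level needed for the test, in CSE-KO alone, so their rise is a description.

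The 3 that fell were Kremen1, Bambi (136 ± 13.4 to 82.0 ± 9.64) and cyclin D1, Ccnd1. Nkd1, a feedback inhibitor, was at 8, 17 and 15 in WT, with 13, 23 and 31 in CSE-KO (adjusted p = 0.10). It was called without CSE-KO 1 (adjusted p = 0.012). Znrf3, the ligase that clears frizzleds, was at 160 ± 7.37 and 146 ± 14.0 and was not called. Ccnd1 went from 2047 ± 37.2 to 1923 ± 12.5, a call that was lost with library totals set equal (adjusted p = 0.49). Each of these genes answers to many signals besides β-catenin.

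**Figure D4:**
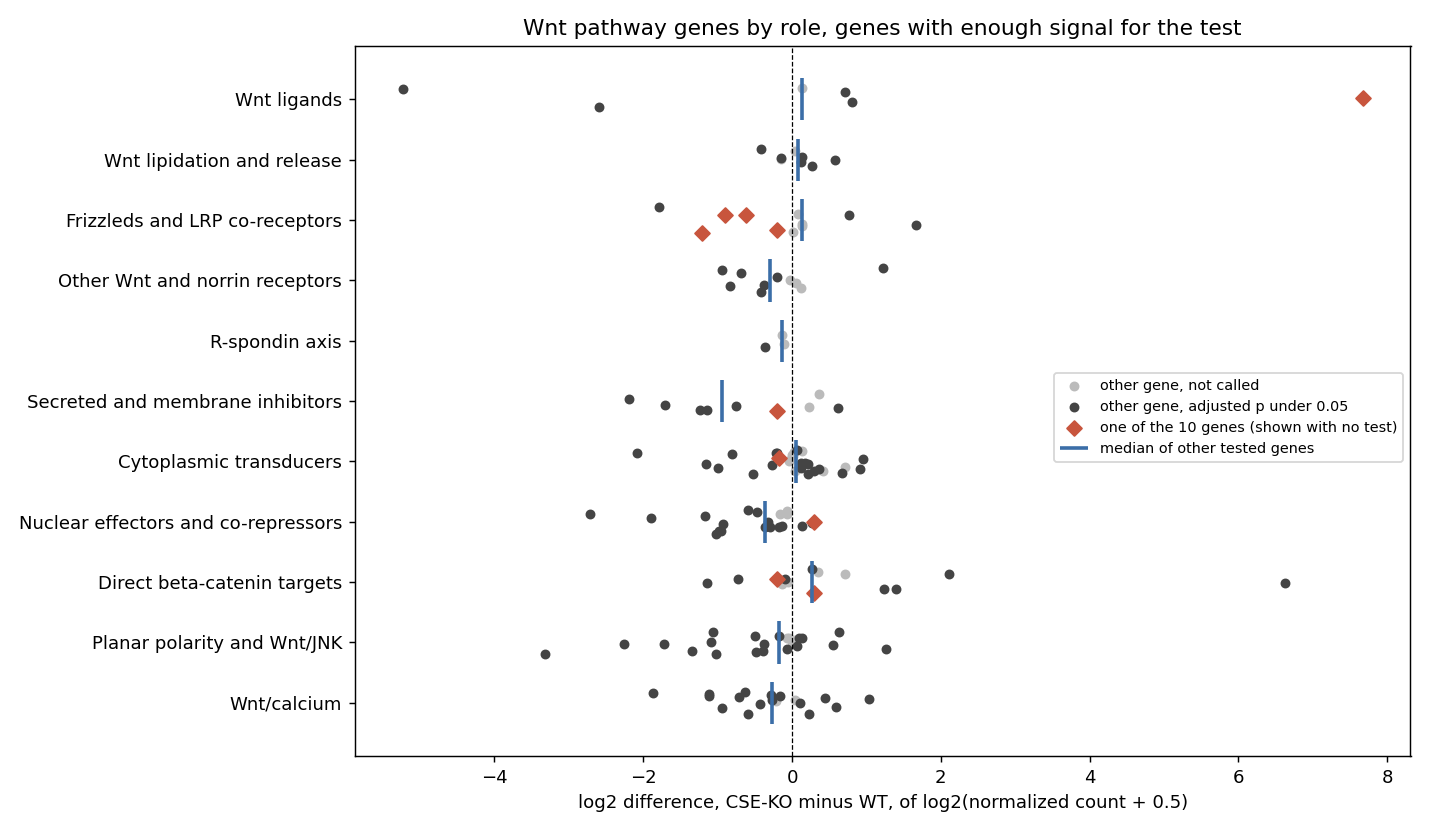
Log2 difference, CSE-KO minus WT, of log2(normalized count + 0.5) for genes of 11 Wnt lists that had enough signal for the test (1 point per gene). Diamonds are the 8 of the 10 genes that could be tested, blue lines are medians of the other genes and the dashed line is the median of all tested genes (0.001). Inhibitors have the lowest median, -0.95, and Wnt11 stands at 7.67.

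Nuclear effectors other than Lef1 and Tcf7 fell in 14 and rose in 2 of 19 tested (84.2% called, against 77.4% of all genes). Their median log2 difference was -0.36. The abundant TCF/LEF gene of these cultures was Tcf7l1, mostly a repressor, which fell from 684 ± 4.58 to 346 ± 42.3 (log2 fold change -0.99, SE 0.08, adjusted p = 6.2e-06). Tcf7l2 fell from 249 ± 17.2 to 180 ± 17.1 (adjusted p = 0.00026). The β-catenin co-activator gene Bcl9l fell from 914 ± 21.4 to 406 ± 18.2 (log2 fold change -1.17, SE 0.04, adjusted p = 1.1e-09). Chd8, a chromatin remodeller that binds β-catenin, fell from 1610 ± 10.1 to 1066 ± 34.04, and Hic1, a repressor that sequesters TCF factors, from 895 ± 33.2 to 472 ± 32.01. The co-repressor Tle2 fell from 91.0 ± 8.66 to 14.7 ± 6.66.

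Planar polarity genes fell in 13 and rose in 6 of 23 tested (82.6% called, against 77.4% of all genes). Their median log2 difference was -0.18. Celsr1, an atypical cadherin of the polarity complex that lymphatic valves need, was at 2072, 2069 and 2176 in WT against 345, 174 and 156 in CSE-KO (log2 fold change -3.32, SE 0.35, adjusted p = 0.00090). Its partners Vangl1 and Vangl2 fell from 841 ± 11.2 to 403 ± 43.7 and from 209 ± 16.3 to 63.7 ± 13.6. Scrib, a polarity scaffold, fell from 842 ± 13.0 to 602 ± 19.1. Lymphatic markers were lower in the same libraries, with Prox1 at 2788 ± 16.1 and 832 ± 219. On the kinase side of this branch, Jun rose from 1073 ± 29.1 to 1657 ± 63.7 (adjusted p = 1.9e-08) and the JNK gene Mapk8 from 434 ± 11.6 to 636 ± 10.6 (adjusted p = 1.1e-07).

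Over all 11 lists, 138 genes outside the 10 were tested, of which 39 rose and 65 fell (75.4% called, against 77.4% of all genes). Their median log2 difference was -0.08, against 0.001 over all tested genes. Among the 65 that fell, 36 had their highest CSE-KO value in CSE-KO 1 (55.4%), against 61.5% of all genes that fell. A change of at least 2-fold was seen in 22 of the 65 that fell, against 1629 of 5369 over all genes, and in 7 of the 39 that rose, against 1152 of 5270. Genes with no fold, such as Tnfrsf19, are not in these counts. Against a fold of 1.2 rather than none, 64 of the 138 were called, with 18 upward and 46 downward.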

How the data were processed

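RNA was sequenced from 6 mouse lung endothelial libraries. Per the labels' protocols, stranded mRNA libraries were read as single ends. Per the submitters' processing notes, DESeq2 1.26.0, featureCounts 1.6.5, STAR 2.7.3a, Trimmomatic 0.39 and Picard 2.21.7 were used, on build mm10, in an order they do not give. The deposited table holds whole-number scores, which no header explains. They were read as normalized counts because recomputed size factors lay between 1.0026 and 1.0083. Such values are not raw counts, so the depth in reads is only approximated by their totals. Exonic lengths came from GENCODE M21 (18940 of 18956 IDs found) and promoters from RefSeq (GRCm38.p6).

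limma 3.58.1 in R 4.3.3 was fitted to log2(value + 0.5) by group, with mean trend and robust variances, two-sided, over the 13750 genes that reached 10 in 3 or more libraries. A call is a Benjamini-Hochberg adjusted p under 0.05 over all of them. A gene that reached 10 in the libraries of 1 group alone could be called in 1 direction only. Log2 fold changes on this scale understate low genes, and folds are left out for group means under 3. Members and lists were chosen with earlier results of these data known. Named genes were the 10, all ligands, frizzleds and LRPs with a group mean of at least 10, up to 3 called genes per other list by smallest adjusted p (overall mean at least 20, groups apart), the 5 most like Wnt11, and Cth. The marker genes and Celsr1, Vangl1, Vangl2, Tcf7l1, Tcf7l2, Tle2, Sp5, Fgfbp1, Nkd1, Znrf3, Myc, Ccnd1, Ror1, Ror2, Reck, Tspan12, Igfbp4, Porcn, Apc, Apc2, Amer1, Axin1, Gsk3a, Gsk3b, Csnk1a1, Bambi, Sox7, Sox17, Sox18, the NFAT genes and the neighbours of Wnt11 were named after their values were seen. Protein sequences were not used here.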

Additional observations from a re-analysis of the deposited data

How the results depend on the processing

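Alternatives covered scaling, filters, pseudocounts, the variance model, each library left out, WT as 1 sample, a test against a fold of 1.2 and a correction for shared start positions. For counts over all genes or all Wnt lists, only the test against a fold of 1.2 moved one over 1.5 times, to 6711 genes changed (3182 up, 3529 down) and, among the Wnt lists without the 10, to 64 changed (18 up). Counts in short lists moved more often: ligands that rose went from 2 to 4 with no filter and to 1 with a minimum of 50, without WT 1, CSE-KO 2 or CSE-KO 3 or with WT as 1 sample, ligands that fell from 2 to 0 with a minimum of 50, release genes that fell from 2 to 1 with equal totals, upper-quartile scaling or WT as 1 sample, and nuclear effectors that rose from 2 to 1 without WT 2 or CSE-KO 3 or with WT as 1 sample. Otherwise the 104 changed Wnt list genes ranged from 86 (WT as 1 sample) to 108 (no filter), and from 98 to 106 with 1 library left out. The log2 difference of Wnt11 was 5.69 with a pseudocount of 5 and 6.81 to 8.22 with 1 library left out. Of 70 other named genes, 52 kept direction and side of the threshold throughout, and 14 lost a call in at least 1 setting, for which the cause was not tested. The marker genes and Porcn, Apc2, Amer1, Gsk3a, Csnk1a1, Bambi, Sox7 and Sox17 were not among these 70. Wnt5a, Fzd7 and Fzd10, none of them called, changed sign: with 1 library left out, Wnt5a ranged from -0.01 to 0.216, Fzd10 from -0.016 to 0.271 and Fzd7 from -0.11 to 0.162, and Fzd7 was at -0.007 with WT as 1 sample. With the replicate block, 10440 genes and 104 Wnt list genes were called, Rspo3 lost its call (adjusted p = 0.076) and Nkd1 gained one (adjusted p = 0.034). Same-numbered libraries did not deviate together (correlations -0.001, 0.002 and 0.007). Because WT libraries differed by less than counting noise, these correlations cannot show whether the numbers pair the libraries. Depth limits Axin2, Lef1, Tcf7, Apcdd1 and the low ligands.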

Other observations

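In the calcium branch of Wnt signalling, calcineurin activates NFAT transcription factors. Genes of this branch fell in 11 and rose in 5 of 18 tested (88.9% called, against 77.4% of all genes). Their median log2 difference was -0.27. Nfatc1, which lymphatic endothelium also uses in valve formation, fell from 1617 ± 36.3 to 744 ± 64.6 (log2 fold change -1.12, SE 0.06, adjusted p = 9.8e-07). Nfatc2, which reached 10 in WT alone, fell from 28 ± 4.00 to 7.33 ± 1.53, while Nfatc4 rose from 34.3 ± 1.53 to 71.0 ± 7 (adjusted p = 3.9e-05). The calcineurin subunit Ppp3ca rose from 1270 ± 11.5 to 1724 ± 35.5 (adjusted p = 2.5e-08), as did Prkca, a protein kinase C gene, from 508 ± 15.6 to 765 ± 10.1. Itpr3, a calcium channel of the endoplasmic reticulum, fell from 1524 ± 25.0 to 1015 ± 50.1. Lymphatic markers were lower in the same libraries, and their part in these values was not tested.

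Of the 3 SOX factors of vascular development, 2 fell, beside 39.0% of all tested genes. Sox18 was at 829, 784 and 822 in WT against 339, 187 and 163 in CSE-KO (log2 fold change -1.89, adjusted p = 0.0047, and 0.082 with WT counted as 1 sample). Sox7 fell from 769 ± 21.7 to 598 ± 11.3 (log2 fold change -0.36, SE 0.03, adjusted p = 1.7e-06), and Sox17 was at 14.7 ± 2.08 and 13.3 ± 3.79 and was not called (adjusted p = 0.62).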
